A study of Mus musculus with 4 samples.

Results

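The transcripts described here encode 10 transcription factors of amacrine and horizontal cell fate: Ptf1a, Foxn4, Tfap2a, Tfap2b, Onecut1, Onecut2, Prox1, Lhx1, Neurod4 and Meis2. They were chosen by gene symbol from the 52550 genes of the count table for their known roles. Retinas of wild type C57BL/6 mice at postnatal day 0 were dissociated with papain, and RNA bound by YTHDF2, a reader of the m6A mark on mRNA, was pulled down with an antibody (RIP) and sequenced beside the input RNA. There were 2 replicates, each with an input and a RIP library, and all 4 libraries shared genotype, strain, age and tissue. A control pulldown with IgG was not analysed here, so RNA held by the antibody or beads alone and RNA held by YTHDF2 cannot be told apart. The labels do not say whether the replicates came from separate animals, and the p-values measure only the spread between these libraries.

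Amacrine and horizontal cells are the interneurons of the retina. Horizontal cells adjust the output of photoreceptors, and amacrine cells shape the input of ganglion cells. Both arise from dividing progenitors under a shared set of transcription factors: Foxn4 makes progenitors competent for these fates, Ptf1a commits newborn cells to them, and later factors divide horizontal from amacrine cells. YTHDF2 binds m6A-marked mRNA and promotes its decay, and the comparison of RIP with input asks which mRNAs were held by the protein in the newborn retina.

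The inputs held 39499994 and 36236531 counts and the RIP libraries 19530226 and 24903212, of which between 8.37% and 11.5% fell on protein-coding genes. Together the 10 members took 4088 and 7223 input counts and, after the pulldown, 3628 and 3022. The tissue label was checked against marker genes. The 9 markers of progenitors summed to 31417 and 23651 counts in the inputs, of which Ccnd1 alone gave 22852 and 14550. Both lens crystallins on the list were at 0 counts in every library, and the 3 pigment epithelium markers summed to at most 10 counts in any library. The 2 blood markers summed to at most 19 counts. Ythdf2 itself had 124 and 317 counts before and 212 and 171 after the pulldown (log2 fold change 0.26, edgeR adjusted p = 0.755).

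YTHDF2 recognises mRNA that carries m6A, which is placed most often at adenosines within short motifs of which GGACT, written as DNA, is a common form. The sense strand of the longest annotated transcript of each gene was searched for these 5 letters, a motif that cannot overlap itself. Coding parts were taken from the longest transcript that has one. It was present in all 10 members and in 93.9% of the 11953 tested protein-coding transcripts, and in the coding part of 9 members and of 75.6% of those transcripts. Neurod4 was the member with no match in its coding part. Of the matches in the coding part, the one nearest to the stop codon is shown for 8 members, in capitals with 12 bases on each side, because they show the sequence in which m6A could be placed in each mRNA. A match is a description of the sequence and not a methylated site. Matches in untranslated regions and the coding match of Onecut2 are not shown. Those shown lie in coding exons and are written 5′ to 3′ on the mRNA strand from GENCODE M21 (GRCm38).
Ptf1a, chr2:19447018-19447046, plus strand: actctctttcctGGACTgatgaaaaacag
Foxn4, chr5:114256559-114256587, minus strand: ccccagcatcatGGACTtcgctctacagg
Tfap2a, chr13:40719295-40719323, minus strand: ccacctagccagGGACTttgggtacgtgt
Tfap2b, chr1:19214274-19214302, plus strand: tgatccccgaagGGACTaccactctgtcc
Onecut1, chr9:74862870-74862898, plus strand: aactcccagcaaGGACTtccccactatgc
Prox1, chr1:190160586-190160614, minus strand: agcaccgcagaaGGACTctctttgtcact
Lhx1, chr11:84519698-84519726, minus strand: acatcccccaggGGACTcgcctagtcctg
Meis2, chr2:115921684-115921712, minus strand: gcgcaagacacgGGACTgacaattctgca

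The members differed widely in how many matches they carried. Onecut1 had 6 over its transcript of 3957 bases, or 1.52 per kb, and Foxn4 had 4 over 3016 bases, or 1.33 per kb. At the other end, Meis2 had 1 over 5498 bases (0.182 per kb) and Neurod4 had 1 over 3345 bases (0.299 per kb). The longest Meis2 transcript has no annotated coding part. Its density, which also enters the values below, is therefore not that of the coding mRNA whose match is shown above. The median over tested protein-coding transcripts was 1.03 per kb, so that 7 members lay below it and 3 above. Over the 10 members the log2 fold change in the RIP and this density had a Spearman rho of -0.539 and a Pearson r of -0.612, and over 10510 protein-coding genes at 10 or more counts in each library rho was 0.0772 and r was 0.0437. The density is divided by transcript length, which had its own relation to the log2 fold change. For length, rho was -0.479 and r was -0.227 over the members. Over the 10510 genes rho was 0.46 and r was 0.333, larger than for the density. The part of length in these values was not tested. The points share the same 4 libraries and are no replicates.

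None of the 10 factors was enriched in the YTHDF2 RIP and 2 were depleted, Onecut1 and Tfap2b. Enriched means a log2 fold change of at least 1 with an unadjusted p below 0.05 in edgeR's quasi-likelihood test, and depleted means -1 or lower with the same p. Without the limit on the fold change, 0 members were higher and 2 lower at this p, beside 1570 and 2483 of 13632 tested transcripts. DESeq2 also called 0 members enriched and 2 depleted, beside 1223 and 2196 of 23345 transcripts. Of 13632 transcripts tested, 9.43% were enriched and 17.2% were depleted, so that 2 depleted of 10 is near the background. At an adjusted p below 0.05, which 3.48% of tested transcripts passed as higher and 9.78% as lower in the RIP, Onecut1 was lower and no member was higher. Both RIP libraries lay below both inputs for 4 members, Onecut1, Tfap2a, Tfap2b and Lhx1, against 31.3% of tested transcripts, and above both inputs for 0 members, against 29.6%. The median log2 fold change was -0.43 over the members and -0.05 over all tested transcripts. In bulk RNA of this kind, the level of a transcript in the inputs cannot tell fewer cells of a type from less RNA per cell. With 2 libraries against 2, an exact permutation test over the libraries cannot give a two-sided p below 0.333, so the tests here are those of the model fitted across all genes.

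**Figure D1:**
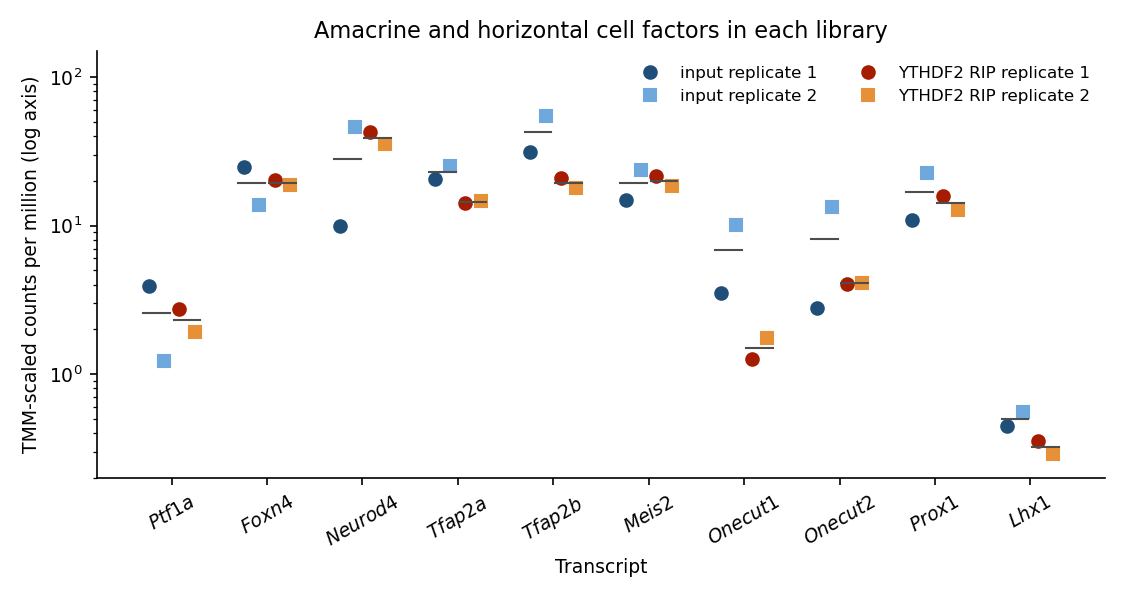
Each point is one library and the vertical axis gives counts per 1000000 after TMM scaling on a log scale. Circles are replicate 1, squares replicate 2, blue the inputs and red or orange the YTHDF2 RIP libraries, and short lines are group means. Onecut1, Tfap2a, Tfap2b and Lhx1 are the members whose RIP points both lie below both inputs, and the inputs of Neurod4 and Onecut2 stand far apart.

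Per unit of length, Neurod4 was on average the most abundant member in the inputs and Lhx1 the least. In deposited FPKM, which is comparable between genes, Neurod4 stood at 7.40 ± 7.10 (SD, n = 2) and Tfap2b at 5.85 ± 2.72. Foxn4 stood at 4.80 ± 1.58 and Tfap2a at 3.99 ± 0.914. These 4 could not be ordered as a whole, since each overlapped its neighbour over the input libraries, though Tfap2b was above Tfap2a in both inputs. Below them lay Prox1 at 1.74 ± 0.995, Onecut1 at 1.45 ± 1.09, Ptf1a at 1.41 ± 0.961 and Meis2 at 1.38 ± 0.576, again with each overlapping the next. Within each input, Prox1 was above Onecut1 and Meis2. Onecut2 at 0.534 ± 0.521 and Lhx1 at 0.101 ± 0.0228 were lower, and the steps from Tfap2a to Prox1, from Meis2 to Onecut2 and from Onecut2 to Lhx1 were the 3 of 9 where the input ranges did not overlap. In the RIP libraries, mean FPKM was highest for Neurod4 (12.3 ± 4.12), Foxn4 (6.01 ± 1.56) and Tfap2b (3.21 ± 1.01).

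Foxn4 and Ptf1a, the earliest of the set, did not pass the test. Foxn4 (ENSMUSG00000042002, chr5:114254164-114273807, minus strand, 10 exons) encodes a forkhead factor of progenitors that lies upstream of Ptf1a. It gave 24.8 and 13.7 CPM (counts per 1000000 after TMM scaling) in input replicates 1 and 2 and 20.2 and 18.7 CPM in RIP replicates 1 and 2. Both RIP values fell between the inputs, and the log2 fold change was 0.01 ± 0.383 (SE, 95% interval -0.86 to 0.89, edgeR adjusted p = 0.986). Ptf1a (ENSMUSG00000026735, chr2:19445663-19447501, plus strand, 2 exons) encodes a basic helix-loop-helix factor, and retinas without it lack horizontal cells and most amacrine cells. Its levels were 3.93 and 1.22 CPM in the inputs and 2.74 and 1.91 CPM in the RIP libraries, from 131, 42, 69 and 46 counts. The RIP values again fell between the inputs, with a log2 fold change of -0.15 ± 0.574 (95% interval -1.46 to 1.16, edgeR adjusted p = 0.890). Its sign depended on the scaling, with 0.26 when libraries were scaled by their size alone. The ratio of Foxn4 to Ptf1a counts within a library was 6.31 and 11.2 in the inputs, against 7.38 and 9.76 after the pulldown, so the groups overlapped for the ratio as well.

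Neurod4 and Meis2, a basic helix-loop-helix and a homeodomain factor of amacrine precursors and amacrine subtypes, had the highest log2 fold changes of the set, and neither passed the test. Neurod4 (ENSMUSG00000048015, chr10:130268152-130280240, minus strand, 2 exons) takes part in amacrine and bipolar cell genesis. It gave 9.96 and 45.8 CPM in the inputs and 42.8 and 35.3 CPM in the RIP libraries. One input was far below the other 3 libraries, which lay close together. Over all 4 the log2 fold change was 0.49 ± 0.606 (95% interval -0.89 to 1.87, edgeR adjusted p = 0.638), with 2.10 in replicate 1 alone and -0.37 in replicate 2 alone. Without input replicate 2 it was 1.96 and Neurod4 was called enriched, and without input replicate 1 it was -0.23. Meis2 (ENSMUSG00000027210, chr2:115863064-116065839, minus strand) marks GABAergic amacrine cells and also progenitors. Its levels were 14.8 and 23.8 CPM in the inputs and 21.5 and 18.4 CPM in the RIP libraries, with a log2 fold change of 0.05 ± 0.366 (95% interval -0.78 to 0.89, edgeR adjusted p = 0.943).

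Of the AP-2 factors, Tfap2b was depleted and Tfap2a, though lower in both RIP libraries, did not pass the test. The proteins act redundantly downstream of Ptf1a in newborn amacrine and horizontal cells. Tfap2b (ENSMUSG00000025927, chr1:19208914-19238576, plus strand, 7 exons) gave 31.0 and 54.3 CPM in the inputs and 21.0 and 17.8 CPM in the RIP libraries. The groups did not overlap, and the log2 fold change was -1.13 ± 0.385 (95% interval -2.01 to -0.26, edgeR adjusted p = 0.0880). The call was lost with scaling by library size alone, at -0.81. It was also lost without input replicate 2, at -0.68, without RIP replicate 1, at -1.18, and without RIP replicate 2, at -0.96, and was kept without input replicate 1, at -1.48. Tfap2a (ENSMUSG00000021359, chr13:40715302-40738376, minus strand, 7 exons) gave 20.5 and 25.1 CPM in the inputs and 14.1 and 14.6 CPM in the RIP libraries. Its inputs lay close together, 1.23 times apart, and its log2 fold change was -0.67 ± 0.331 (95% interval -1.42 to 0.09, edgeR adjusted p = 0.218). Antisense genes overlap Tfap2a, of which Gm26688 had the most counts (34, 29, 5 and 18 against 682, 861, 356 and 351 for Tfap2a), and the strand setting of the counting is not given in the sources used here. Tfap2b exceeded Tfap2a in counts by 1.52 and 2.16 times in the inputs and by 1.49 and 1.22 times in the RIP libraries. These groups did not overlap, with an exact permutation p = 0.333, the smallest possible here.

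**Figure D2:**
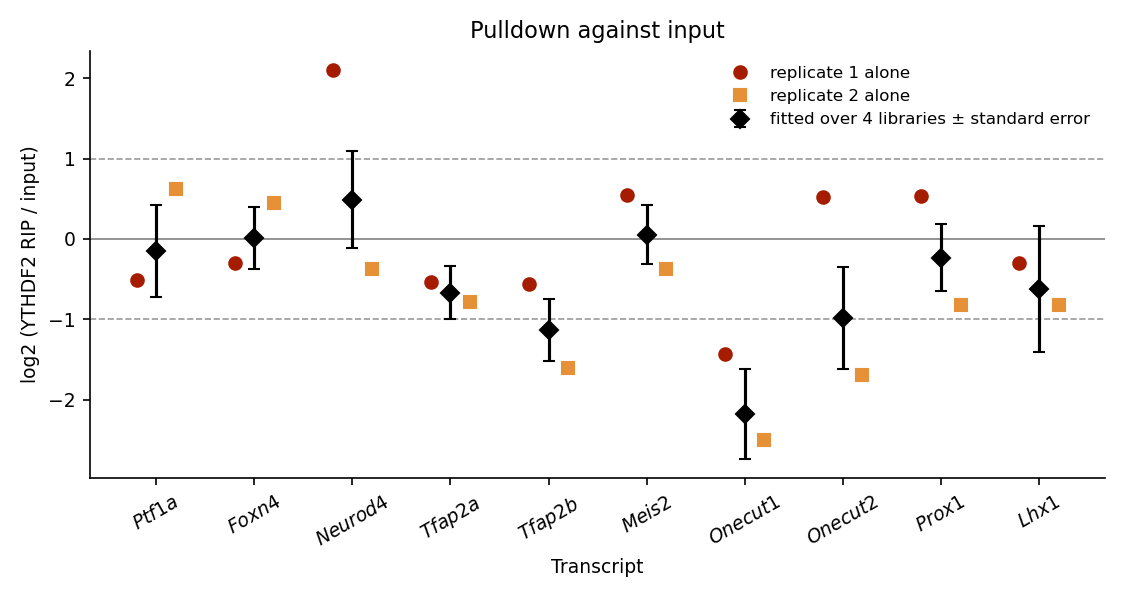
Black diamonds give the fitted log2 ratio of YTHDF2 RIP to input over 4 libraries with its standard error. Red circles and orange squares give the ratio in replicate 1 and replicate 2 alone, and dashed lines mark log2 ratios of 1 and -1. Onecut1 lies below -1 in both replicates, while for Ptf1a, Foxn4, Neurod4, Meis2, Onecut2 and Prox1 the replicates lie on opposite sides of 0.

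Of the factors most tied to horizontal cells, Onecut1 was depleted (4.51 times lower in mean CPM) while Prox1, Lhx1 and Onecut2 did not pass the test. Onecut1 (ENSMUSG00000043013, chr9:74861921-74891781, plus strand, 2 exons) encodes a cut homeodomain factor needed for horizontal cell formation, which ganglion cells and their precursors also express. It gave 3.51 and 10.1 CPM in the inputs and 1.27 and 1.75 CPM in the RIP libraries, from 117, 346, 32 and 42 counts. Both RIP libraries lay below both inputs, and the log2 fold change was -2.17 ± 0.558 (95% interval -3.44 to -0.90, edgeR adjusted p = 0.0374). The depletion was present in each replicate, with log2 ratios of -1.43 and -2.50, and with either input left out, at -2.74 without input replicate 1 and -1.23 once input replicate 2 was dropped. Without RIP replicate 1 it was -1.90 with an unadjusted edgeR p of 0.0532 and the call was lost.

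Onecut2 (ENSMUSG00000045991), its paralog with an overlapping role, lies on chromosome 18 and has a long 3′ untranslated region. It gave 2.79 and 13.3 CPM in the inputs and 4.04 and 4.12 CPM in the RIP libraries, which agree closely with each other and lie between the inputs. The log2 fold change was -0.98 ± 0.637 (95% interval -2.43 to 0.47, edgeR adjusted p = 0.338), and it was -1.71 without input replicate 1, where Onecut2 was called depleted, and 0.54 without input replicate 2. A ratio of counts within a library is free of the scaling between libraries. For Onecut1 over Onecut2 it was 1.26 and 0.755 in the inputs, against 0.314 and 0.424 after the pulldown (exact permutation p = 0.333). The ratio was thus lower in both RIP libraries than in either input. Counts are not scaled by length, so the ratio does not rank the pair. In FPKM, RIP replicates 1 and 2 gave 0.357 and 0.369 for Onecut1 and 0.357 and 0.270 for Onecut2.

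Prox1 (ENSMUSG00000010175, chr1:190118035-190170714, minus strand, 5 exons) encodes a homeodomain factor that drives progenitors out of the cell cycle and towards the horizontal fate. Its levels were 10.9 and 22.7 CPM in the inputs and 15.8 and 12.8 CPM in the RIP libraries, and the log2 fold change was -0.24 ± 0.415 (95% interval -1.18 to 0.71, edgeR adjusted p = 0.751). It turned to 0.09 with scaling by library size alone. The ratio of Onecut1 to Prox1 counts was 0.321 and 0.445 in the inputs, against 0.0804 and 0.137 after the pulldown (exact permutation p = 0.333), the widest separation of the 4 pairs examined. The antisense gene Prox1os had 21, 33, 42 and 42 counts against 364, 778, 398 and 307 for Prox1. Lhx1 (ENSMUSG00000018698, chr11:84518284-84525535, minus strand, 5 exons), a LIM homeodomain factor that places horizontal cells in their layer, was barely detected, with 15, 19, 9 and 7 counts. The log2 fold change was -0.62 ± 0.784 (95% interval -2.41 to 1.16, edgeR adjusted p = 0.642). This interval spans both limits of the calls, so that the values show neither a change nor its absence.

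For most members the inputs lay further apart than the RIP libraries did. Input replicate 2 exceeded replicate 1 by 4.78 times for Onecut2, 4.59 times for Neurod4, 2.87 times for Onecut1 and 2.08 times for Prox1. Ptf1a went the other way and was 3.21 times higher in input replicate 1, as was Foxn4 at 1.81 times. The median size of the log2 difference over the members was 0.953 for input replicates and 0.245 for RIP replicates, beside 0.611 and 0.289 over all tested transcripts. The difference moved with the GC content of the transcript. Neurod4 had the lowest GC content of the set at 38.0% and Onecut2 the next at 42.6%, while Ptf1a and Foxn4 had the highest at 56.7% and 58.3%. Over the 10 members, GC content and the log2 ratio of input replicate 2 to replicate 1 had a Spearman rho of -0.818 and a Pearson r of -0.870. Over the 10510 protein-coding genes rho was -0.611 and r was -0.608, and for the RIP libraries rho was 0.00211 and r was 0.000151. These are descriptions across genes that share the same libraries, and the part of GC content in the results was not tested.

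**Figure D3:**
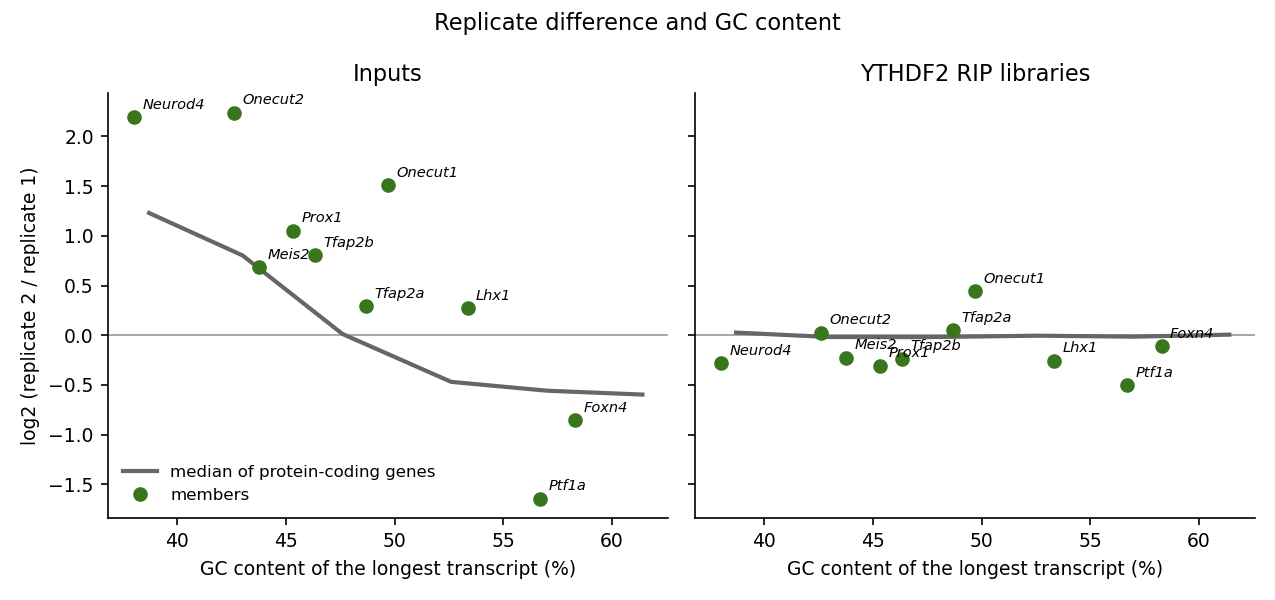
The horizontal axis gives the GC content of the longest transcript and the vertical axis the log2 ratio of replicate 2 to replicate 1, for the inputs at left and the YTHDF2 RIP libraries at right. Green points are the 10 members and the grey line joins medians of protein-coding genes in 6 ranges of GC content. In the inputs the line falls from 1.23 to -0.597 and the members also fall from Neurod4 to Ptf1a but mostly lie off the line, with Onecut1 at 1.51 where the median is 0.0124, while in the RIP libraries it stays between -0.0189 and 0.0267.

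Since one input decided several values, the calls were also made without each. Without input replicate 1, 3 members were depleted, Onecut1, Onecut2 and Tfap2b, and 0 were enriched, against 17.3% and 12.3% of tested transcripts. Without input replicate 2, Onecut1 was depleted and Neurod4 enriched, against 18.7% and 15.0%. Onecut1 was the member called in both. When smooth trends on transcript length and GC content were taken out of the log2 fold changes, Onecut1 stood at -2.33 (t test, adjusted p = 0.0607). Tfap2b stood at -1.51 (t test, adjusted p = 0.0684). The t test divided the remaining fold change by the standard error of the edgeR fit made before the trends were removed.

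Paralogs of the members, which the lists were written to set beside them, gave 0 enriched and 3 depleted (27.3%) of 11 tested. Their median log2 fold change was 0.07. The background for this list and those below was 9.43% enriched and 17.2% depleted. At an unadjusted edgeR p below 0.05 alone, 0 were higher and 4 lower, and DESeq2 called 0 enriched. Of all 13632 tested transcripts, 1570 were higher and 2483 lower at this p alone. Tfap2d, an AP-2 factor of ganglion and amacrine cells, was at -2.09 ± 0.617 (edgeR adjusted p = 0.0585). Onecut3, the third cut factor of the family, was at -1.94 ± 0.658 (adjusted p = 0.0878) and Meis3 at -1.20 ± 0.404 (adjusted p = 0.0857). Neurod1, a basic helix-loop-helix factor of photoreceptor and amacrine precursors, and Foxn3 were the paralogs with the highest CPM and stood at 0.38 and 0.08. Lhx5, a LIM paralog of Lhx1, had at most 9 counts in any library and was not tested.

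Partners, meaning proteins that bind the members' proteins or compete with them for partners, gave 0 enriched and 2 depleted (10.5%) of 19 tested. Their median was -0.05. At an unadjusted edgeR p below 0.05 alone, 1 was higher and 3 were lower, and DESeq2 called 0 enriched. Id2, which sequesters the E proteins that basic helix-loop-helix factors such as Ptf1a need, had the lowest value of the tested genes on the 4 lists, at -2.47 ± 0.376 (edgeR adjusted p = 0.00487). Ldb2, a cofactor that bridges LIM homeodomain proteins, was at -1.07 ± 0.447 (adjusted p = 0.152). Ldb1, which also bridges LIM homeodomain proteins and was among the partners with the highest CPM, stood at -0.57.

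Other regulators of the same fates gave 1 enriched (4.55%) and 5 depleted (22.7%) of 22 tested, with a median of -0.19. At an unadjusted edgeR p below 0.05 alone, 1 was higher and 6 were lower, and DESeq2 called 0 enriched and 5 depleted. Six3, a homeodomain factor of retinal progenitors and amacrine cells, was at -2.18 ± 0.417 (edgeR adjusted p = 0.0127). Lmo4, a LIM-only protein of GABAergic amacrine cells, was at -1.75 ± 0.454 (adjusted p = 0.0383), and Sox2, a factor of progenitors and cholinergic amacrine cells, at -1.41 ± 0.337 (adjusted p = 0.0290). Barhl2, which favours glycinergic amacrine cells, was at -1.21 ± 0.414 (adjusted p = 0.0912). Sall3, named after its values were seen, was the enriched gene of this list at 1.09 (edgeR adjusted p = 0.151), and was not called by DESeq2. Rorb and Pax6 had the highest CPM of this list and stood at -0.32 and -0.74 (unadjusted p = 0.0522 for Pax6).

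Products of mature amacrine and horizontal cells gave 1 enriched and 0 depleted of 10 tested, with a median of 0.43, the highest of the 4 lists. At an unadjusted edgeR p below 0.05 alone, 1 was higher and 0 were lower, and DESeq2 called 0 depleted. Megf10, a cell-surface receptor that spaces starburst amacrine and horizontal cells, was at 1.33 ± 0.513 (edgeR adjusted p = 0.125). Gad2, an enzyme of GABA synthesis and among those with the highest CPM, stood at 0.42. Th and Calb1, which mark dopaminergic amacrine cells and mature horizontal cells, were at 0 counts in all 4 libraries. Over the 4 lists together, 2 of 62 tested genes were enriched and 10 were depleted, shares of 3.23% and 16.1% that lie below and near the background.

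**Figure D4:**
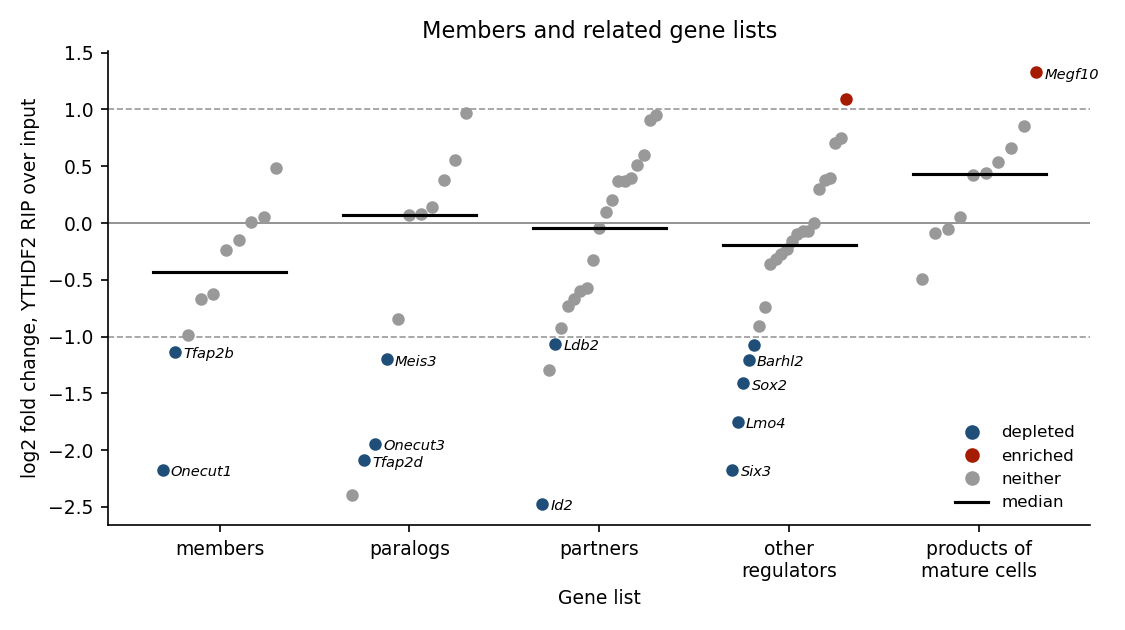
Each point is a tested gene, the horizontal axis gives the gene list and the vertical axis the log2 fold change of YTHDF2 RIP over input. Blue points are depleted, red points enriched and grey points neither, black lines are medians and dashed lines mark 1 and -1, and some of the called genes are named. The members' median of -0.43 lies lowest, the products of mature cells lie highest at 0.43, and of the called genes Onecut1, Tfap2d, Id2 and Six3 lie below -2.

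Ganglion cells also express Onecut1 and Onecut2. Of 11 ganglion cell markers 4 were depleted, beside 17.2% of all tested transcripts, and 7 did not pass the test. The 4 were Sncg, Nefm, Stmn2 and Gap43, each with an adjusted p below 0.05, and the summed level of the list was 106 and 101 CPM in the inputs and 37.9 and 36.3 CPM in the RIP libraries. The defining factors Pou4f1, Pou4f2 and Pou4f3 did not pass the test and stood at -0.09, -0.46 and 0.59, with both RIP libraries above both inputs for Pou4f3, and none of the 11 was at 0 in every library. Of 9 progenitor markers 2 were depleted, Hes1 and Mki67, a share of 22.2%. The summed level was 942 and 689 CPM in the inputs and 639 and 620 CPM in the RIP libraries. Most of this sum was Ccnd1, at 685 and 424 CPM in the inputs and 459 and 445 CPM in the RIP libraries. Of 7 photoreceptor markers tested 1 was depleted, Opn1sw, a share of 14.3%, and the summed level was 128 and 112 CPM in the inputs and 140 and 155 CPM in the RIP libraries. The part of other cell types in the members' values was not tested.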

How the data were processed

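The members and the lists set beside them were chosen with earlier results of these data known. The authors deposited raw read counts per gene and, in another table, FPKM, values per length and library size made by the authors. The submitters' processing notes name STAR 2.5, HTSeq and GRCm38, and the annotation, counting options and the basis of the FPKM lengths are not given in the sources used here. A stranded TruSeq kit was used per the labels. Every per-sample column was used.

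The deposited counts were fitted with edgeR 4.0.16 (R 4.3.3): filterByExpr (minimum count 10, minimum total 15), TMM, glmQLFit and glmQLFTest on group alone, with Benjamini-Hochberg adjustment over 13632 genes. Standard errors were derived from the fold change and its F statistic. All members passed the filter. Alternatives used DESeq2 1.42.0, limma 3.58.1 on log2(FPKM + 0.1) and log2(FPKM + 1) where mean FPKM reached 0.1, other scalings and filters, a replicate block, mgcv 1.9.3 smooths on length and GC content, and each library left out. Ratios between single libraries used CPM + 0.05. Scripts were tested on simulated data.

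The series' design text gives each replicate an input and a pulldown, so equal numbers were taken as pairs. The deviations of same-numbered libraries had a Pearson r of -0.0348 and a Spearman rho of -0.0364 over tested genes. GENCODE M21 held 52403 of 52550 identifiers, and the longest transcript stood for each gene in length, GC content and motif density. Coding parts came from the longest transcript with a coding part, which for Meis2 is another transcript. The text names all members and, from each list, up to 4 called genes by absolute log2 fold change and the pair with the highest CPM. Lhx5, Th, Calb1, Sall3 and the marker genes were named after their values were seen. Some genes that this rule selects are not reported here.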

Additional observations from a re-analysis of the deposited data

How the results depend on the processing

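Over 11 settings other than leaving out a library, 86 of 107 fold changes of the members kept their direction and their side of the call. Onecut1 was depleted in all of these but log2(FPKM + 1), where it was -0.77. Tfap2b lost its call with scaling by library size alone and with both FPKM fits. The direction turned for 4 members, which in the main fit stood at -0.15 (Ptf1a), 0.01 (Foxn4), -0.24 (Prox1) and 0.05 (Meis2). Ptf1a was 0.26 with library size alone, 0.04 with the replicate block, 0.30 and 0.16 with log2(FPKM + 0.1) and log2(FPKM + 1), and 0.55 and 0.72 with trends on length and GC content taken out, without and with the replicate block. Foxn4 was -0.01 with TMM on genes other than small noncoding, ribosomal and mitochondrial ones, -0.05 with at least 10 counts in every library, and -0.13 and -0.10 with trends taken out. Prox1 was 0.09 with library size alone and 0.11 and 0.05 with the FPKM fits. Meis2 was -0.02 with at least 10 counts in every library and -0.14 and -0.18 with trends taken out. The cause of these turns was not tested. Lhx1 was not tested with at least 10 counts in every library or in the FPKM fits.

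The replicate block changed no member's call. With the block and trends taken out, Neurod4 was 1.40 and 1 member was enriched. The number of depleted members was 1 with library size alone, 1 with log2(FPKM + 0.1), 0 with log2(FPKM + 1) and 1 by adjusted p. Of the list genes, enriched were 1 with DESeq2, 7 with library size alone, 1 with at least 10 counts in every library, 1 with the replicate block, 0 with log2(FPKM + 1), 1 with trends taken out, 1 with the block as well and 0 by adjusted p, and depleted were 5 with library size alone, 5 and 2 with the FPKM fits, 4 with trends taken out, 6 with the block as well and 4 by adjusted p. Of all tested transcripts, 2357 were enriched with library size alone, 386 with log2(FPKM + 1) and 474 by adjusted p, and 1055 were depleted with log2(FPKM + 1), 1310 with trends taken out, 1381 with the block as well and 1333 by adjusted p.

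With 1 library left out, where the lone library is assumed to vary like the other group, the members enriched ranged from 0 to 1 and the depleted from 0 to 3, the list genes from 0 to 9 and from 3 to 13, and all transcripts from 670 to 2097 and from 1562 to 2610. Fold changes ranged from -0.76 to 0.92 for Ptf1a, -0.36 to 0.50 for Foxn4, -0.81 to -0.52 for Tfap2a, -1.48 to -0.68 for Tfap2b, -2.74 to -1.23 for Onecut1, -1.71 to 0.54 for Onecut2, -0.67 to 0.38 for Prox1, -0.76 to -0.41 for Lhx1, -0.23 to 1.96 for Neurod4 and -0.25 to 0.43 for Meis2. Tfap2b was not called without input replicate 2 or without either RIP library. Scaling by library size alone moved the median of all genes from -0.05 to 0.27 and the enriched share of calls from 35.4% to 57.7%, and the share was 45.6% with log2(FPKM + 0.1), 48.4% with trends taken out and 48.3% with the block as well. Between 8.37% and 11.5% of counts fell on protein-coding genes. Lhx1 had the lowest mean input FPKM of the members, and whether this share limited its precision was not tested.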
